A study of Mus musculus with 8 samples.

Results

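Ccl2, Ccl7, Cxcl1, Cxcl2, Cxcl5, Saa3, Lcn2, Il6, Il1rl1 and Il11 are 10 chemokine and inflammatory genes. Their summed levels were higher in the fibroblast feeder layer of mouse embryonic stem (mES) cell cultures than in the ES cells. For Il11, more UMIs were nevertheless counted in the many ES cells than in the feeders of the culture treated with CX-5461. The 10 genes are among the 54146 in the count tables and were taken by symbol. They had been chosen on their measured levels in feeders and in ES cells of both libraries, so those levels are given here as a description and not as a test. Single-cell RNA-seq with 10x Genomics 3′ reagents was made from ICM-derived ES cells that were untreated (Control) or treated with CX-5461, an inhibitor of RNA polymerase I. The line is E14 wild type in the study's methods, and both cultures stood in LIF/2i medium on gelatin with mouse embryonic fibroblast (MEF) feeders for 2 days, and feeder cells were present in both sequenced suspensions. The dose and duration of CX-5461 in the single-cell cultures, and the strain, passage and growth arrest of the feeders, are not given in the sources used here. The labels list 4 samples per condition, but the deposited barcodes do not say which of them a cell came from. Each condition therefore counts as 1 library here, and the differences below have no replicate check.

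Chemokines are small secreted proteins that draw leukocytes along a gradient by binding G protein-coupled receptors. Ccl2 and Ccl7 are CC chemokines that recruit monocytes through the receptor CCR2, while Cxcl1, Cxcl2 and Cxcl5 are CXC chemokines that recruit neutrophils through CXCR2. Saa3 is an acute-phase serum amyloid protein, and Lcn2 (lipocalin 2) binds bacterial siderophores and so withholds iron. Il6 and Il11 are cytokines that signal through the shared receptor chain gp130 to STAT3, and Il1rl1 encodes ST2, the receptor of interleukin 33, which is also made as a soluble decoy. Fibroblasts are known to secrete most of these proteins when NF-κB, AP-1 or C/EBP factors are activated by interleukin 1, TNF or tissue damage.

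The genes lie in 2 clusters and 5 single places of the GRCm38 genome. Ccl2 (chr11:82035571-82037453) and Ccl7 (chr11:82045712-82047525) are neighbours on the plus strand of chromosome 11, and Cxcl5 (chr5:90759360-90761624), Cxcl1 (chr5:90891241-90893115) and Cxcl2 (chr5:90903871-90905938) lie on the plus strand of chromosome 5. Il6 (chr5:30013114-30019981) is farther away on the same chromosome, and Saa3 (chr7:46711998-46715700), Lcn2 (chr2:32384633-32388252), Il1rl1 (chr1:40429570-40465415) and Il11 (chr7:4772373-4782859) are apart from the others. All 10 are annotated as protein coding. None of them had a count that the authors marked as shared with another gene in either library.

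The sequences before the start of 5 of these genes are shown because they let the letters known from inflammatory promoters be compared with the direction of the difference between libraries. RefSeq windows of 300 bases on GRCm38.p6 (250 before and 50 after the start) were found for 7 of the 10 genes, in 9 windows, and not for Ccl2, Ccl7 and Cxcl5. The 250 bases before the start are printed 5′ to 3′ in the direction of the gene, for Cxcl1 (chr5:90890995-90891244, plus strand), Cxcl2 (chr5:90903649-90903898, plus), Il6 (chr5:30012864-30013113, plus), Saa3 (chr7:46715677-46715926, minus) and Il1rl1 (chr1:40429320-40429569, plus, the upstream one of its windows). Capitals mark letters that match a searched motif.
Cxcl1: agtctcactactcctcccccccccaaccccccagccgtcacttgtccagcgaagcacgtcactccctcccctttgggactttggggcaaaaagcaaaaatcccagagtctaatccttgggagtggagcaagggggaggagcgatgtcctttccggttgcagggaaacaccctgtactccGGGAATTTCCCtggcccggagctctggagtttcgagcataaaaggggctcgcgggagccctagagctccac
Cxcl2: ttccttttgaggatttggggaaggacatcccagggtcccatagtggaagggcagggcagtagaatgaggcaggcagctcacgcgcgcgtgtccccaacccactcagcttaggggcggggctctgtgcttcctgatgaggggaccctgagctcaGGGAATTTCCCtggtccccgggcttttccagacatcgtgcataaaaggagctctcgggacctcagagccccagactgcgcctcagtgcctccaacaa
Il6: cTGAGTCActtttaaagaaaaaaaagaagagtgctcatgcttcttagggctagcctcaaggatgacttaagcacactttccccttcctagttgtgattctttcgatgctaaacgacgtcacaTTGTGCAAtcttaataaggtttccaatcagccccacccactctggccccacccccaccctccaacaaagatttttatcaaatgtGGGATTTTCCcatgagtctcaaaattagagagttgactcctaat
Saa3: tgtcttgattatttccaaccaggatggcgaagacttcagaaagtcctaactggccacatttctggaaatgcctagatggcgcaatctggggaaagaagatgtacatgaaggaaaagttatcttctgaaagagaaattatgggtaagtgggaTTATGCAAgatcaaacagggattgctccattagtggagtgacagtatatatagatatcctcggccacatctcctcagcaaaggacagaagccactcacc
Il1rl1: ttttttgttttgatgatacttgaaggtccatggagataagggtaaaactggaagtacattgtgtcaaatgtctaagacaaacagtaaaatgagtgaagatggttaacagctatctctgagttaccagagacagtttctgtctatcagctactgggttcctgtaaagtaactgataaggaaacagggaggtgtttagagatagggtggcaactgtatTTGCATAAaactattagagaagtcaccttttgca

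Both strands of each whole window were searched for the NF-κB consensus, for AP-1 (TGANTCA), for C/EBP (TTGCNNAA) and for the TATA box (TATAAA). Cxcl1 and Cxcl2 held the same letters GGGAATTTCCC, which match the NF-κB consensus on both strands in overlapping positions, from 71 to 61 bases before the start in Cxcl1 and from 97 to 87 in Cxcl2. Il6 held GGGATTTTCC from 44 to 35 bases before its start, an AP-1 match TGAGTCA and a C/EBP match in the orientation TTGTGCAA. The capitals of Saa3 (TTATGCAA) and of Il1rl1 (TTGCATAA) are C/EBP matches on the minus and the plus strand. Among the windows that are not shown, Lcn2 held a C/EBP match and Il11 an AP-1 match. The downstream window of Il1rl1 (chr1:40439379-40439628) held no match, and which of its windows the feeders use was not tested. Of all 32851 windows in the table, 8.46% held the NF-κB consensus, 7.81% AP-1, 10.8% C/EBP and 13.6% the TATA letters, and 3, 2, 4 and 0 of the 9 windows of these genes did. A match is a description of letters only, and with 9 windows these shares are not compared further.

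The control library held 3838 barcodes with 49610287 UMIs, and the CX-5461 one 4922 barcodes with 69841836 UMIs. After the filters of the study's methods (at least 500 UMIs and at most 0.2 of them mitochondrial), 3767 and 4697 cells were kept, which are more cells than the study's own plots of these libraries hold, for a reason that is not given in the sources used here. Feeders were the cells in which Col1a1, Col1a2 and Col3a1, genes of fibrillar collagens, took at least 0.1% of the UMIs. This gave 141 control and 146 CX-5461 feeders, with a median of 22538 and 24958.5 UMIs per cell and a mitochondrial share of 1.91% and 3.12%. The remaining 3621 and 4551 cells formed the ES class, after 5 control cells with at least 10 Lyz2 UMIs had been left out. No CX-5461 cell reached that number.

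The name feeder was checked against 22 fibroblast and 18 ES cell markers that the collagen limit does not use. The fibroblast markers took a median of 2.40% of the UMIs in control feeders and 2.05% in CX-5461 feeders, beside 0.0558% and 0.0696% in the ES class, and the ES cell markers took 0.0395% and 0.0299% beside 0.840% and 0.875%. The ES class was less clean, since 78 control and 21 CX-5461 cells below the collagen limit had more UMIs of fibroblast than of ES cell markers. These few cells held 2161 of the 2340 UMIs of the 10 genes in the control ES class (92.4%) and 722 of 1116 in the CX-5461 ES class (64.7%). A second division, added after these values had been seen, therefore called every cell a feeder in which the fibroblast markers outnumbered the ES cell markers, which gave 218 and 167 feeders and 3544 and 4530 ES cells. Values for ES cells are given by this division unless stated otherwise, and values for feeders by the collagen limit. The 5 control cells just above the limit held from 4 to 63 UMIs of the 10 genes and the 5 just below it from 0 to 40, and in the CX-5461 library the numbers were 2 to 292 and 2 to 135.

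In the feeders, 8 of the 10 genes stood higher in the CX-5461 library, Il11 stood lower within an interval that includes no difference, and Il1rl1 was several-fold lower. Summed over the 10 genes, control feeders held 7286 UMIs, a level of 2232 CPM (the usual scaling of summed counts to the total of the same cells), and CX-5461 feeders held 16046 UMIs, a level of 4329 CPM. The ratio was 1.94, with a 95% counting interval from 1.89 to 1.99. Without Il1rl1 it was 2.14 (2.08 to 2.20). Intervals here and below cover counting error only, and not the variation between cultures. Those of levels and ratios treat UMIs as independent, and so leave out the variation between the cells of a library too.

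**Figure D1:**
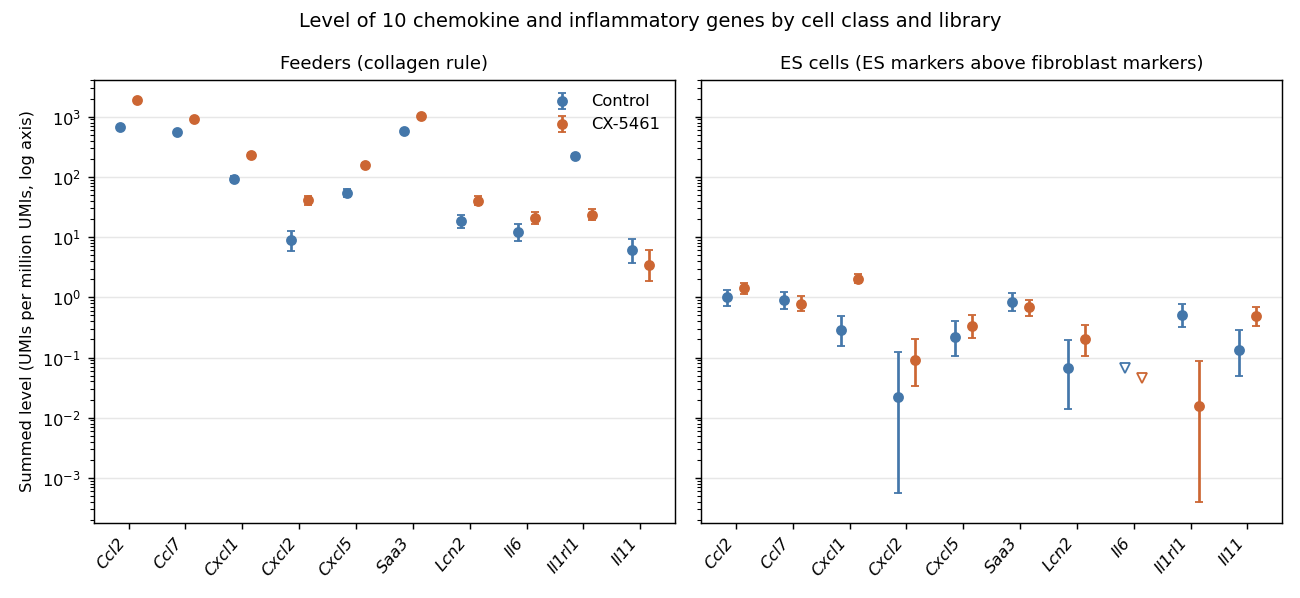
Summed level of each gene in CPM, on a log axis, in feeders by the collagen limit (left) and in ES cells by markers (right), for the control (blue) and CX-5461 (orange) libraries. Points are 1 library each, bars are 95% Poisson intervals, and the open triangles are the limit that a count of 0 allows for Il6. Feeder levels lie between 3.51 and 1861 CPM and ES cell levels at or below 2.05 CPM.

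Ccl2 was the gene with the most UMIs. Control feeders held 2226 Ccl2 UMIs (682 CPM, 654 to 711) and CX-5461 feeders 6898 (1861 CPM), a ratio of 2.73 (2.60 to 2.86). At least 1 UMI was found in 79.4% of control feeders (71.8 to 85.8) and 97.9% of CX-5461 feeders (94.1 to 99.6). The median control feeder carried 10 Ccl2 UMIs (quartiles 1 and 21) and the median CX-5461 feeder 37 (quartiles 14.25 and 63.5). The lower quartile of the CX-5461 feeders thus lay above the control median, and the 10 cells with the most Ccl2 held 32.6% and 25.5% of its UMIs.

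Its neighbour Ccl7 differed less. Control feeders held 1799 Ccl7 UMIs (551 CPM) and CX-5461 feeders 3452 (931 CPM), a ratio of 1.69 (1.60 to 1.79). The gene was seen in 82.3% and 97.3% of feeders, and the median cell carried 7 and 16 UMIs. The intervals of the ratios of Ccl2 and Ccl7 did not overlap, so beyond counting error the balance between these chemokines was not the same in both libraries. Ccl2 and Ccl7 were found in the same cells: the 112 control feeders with a Ccl2 UMI held Ccl7 at 663 CPM and the 29 without one at 45.5 CPM.

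The neutrophil chemokines were also higher in CX-5461 feeders. Cxcl1 had 305 UMIs (93.4 CPM) in control feeders and 866 (234 CPM) in CX-5461 feeders, a ratio of 2.50 (2.19 to 2.86), and was seen in 45.4% and 71.2% of cells. Cxcl2 had 29 UMIs (8.88 CPM) and 151 (40.7 CPM), a ratio of 4.59 (3.07 to 7.08), in 7.80% and 18.5% of cells. Cxcl2 rested on few cells, since 1 CX-5461 feeder held 57 of the 151 UMIs and the 10 cells with the most held 84.8%. Cxcl5 had 178 UMIs (54.5 CPM) and 579 (156 CPM), a ratio of 2.86 (2.42 to 3.41), in 19.1% and 39.0% of cells. The 10 cells with the most Cxcl5 held 83.7% and 58.7% of its UMIs, beside 46.9% and 28.5% for Cxcl1, so Cxcl1 was spread over more feeders than the other CXC genes.

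Saa3 showed the plainest difference in how many feeders carried it. At least 1 UMI was found in 20 of 141 control feeders (14.2%, 8.88 to 21.1) and in 87 of 146 CX-5461 feeders (59.6%, 51.2 to 67.6). The summed level differed less, with 1905 UMIs (583 CPM) and 3772 (1018 CPM), a ratio of 1.74 (1.65 to 1.84). Among control feeders 1 cell held 572 of the UMIs and the 10 highest held 96.3%, while the 10 highest CX-5461 feeders held 50.6%. Control feeders were thus split into a few with very much Saa3 and many with none, and the CX-5461 feeders covered the range between. Leaving out the cell with the most UMIs of the 10 genes in each library raised the log2 ratio of Saa3 from 0.80 to 1.12.

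Lcn2 was confined to a handful of feeders in both libraries. Control feeders held 60 UMIs in 6 cells, 52 of them in 1 cell, and CX-5461 feeders held 150 UMIs in 11 cells, 95 of them in 1 cell. The levels were 18.4 and 40.5 CPM, a ratio of 2.20 (1.62 to 3.02), but the shares of cells, 4.26% (1.58 to 9.03) and 7.53% (3.82 to 13.1), had overlapping intervals. In control feeders Lcn2 went with Saa3, as 59 of its 60 UMIs were in the 20 cells that also held Saa3. In CX-5461 feeders all 11 cells with Lcn2 held Cxcl1 too, and 205 of the 579 Cxcl5 UMIs were in them.

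Il6 was read at a low level. Control feeders held 40 UMIs (12.3 CPM) in 17.0% of cells and CX-5461 feeders 77 (20.8 CPM) in 34.2%, a ratio of 1.70 (1.14 to 2.55), with no more than 3 and 6 UMIs in any cell. After thinning of each feeder to 3100 UMIs the gene was left in 5 cells of each library (3.57% and 3.42%), so the difference was not detectable at that depth. Il11, the other gp130 cytokine, had 20 UMIs (6.13 CPM) in control feeders and 13 (3.51 CPM) in CX-5461 feeders. Its ratio of 0.57 had an interval from 0.26 to 1.21, and among feeders by markers the counts were 28 and 26.

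Il1rl1 ran against the other genes. Control feeders held 724 UMIs (222 CPM, 206 to 239) and CX-5461 feeders 88 (23.7 CPM, 19.0 to 29.2), which is 9.34-fold lower (7.48 to 11.8). The share of feeders with a UMI was 51.8% (43.2 to 60.3) and 28.8% (21.6 to 36.8), and after thinning 30.7% and 5.48%. The highest cell held 77 UMIs among control and 7 among CX-5461 feeders, so cells with many Il1rl1 UMIs were seen in the control library alone. Il33, which encodes the ligand of this receptor, had 4 and 2 UMIs in the feeders. Control feeders with Il1rl1 did not lack the chemokines: Ccl2 stood at 712 CPM in the 73 feeders with an Il1rl1 UMI and at 638 CPM in the 68 without.

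**Figure D2:**
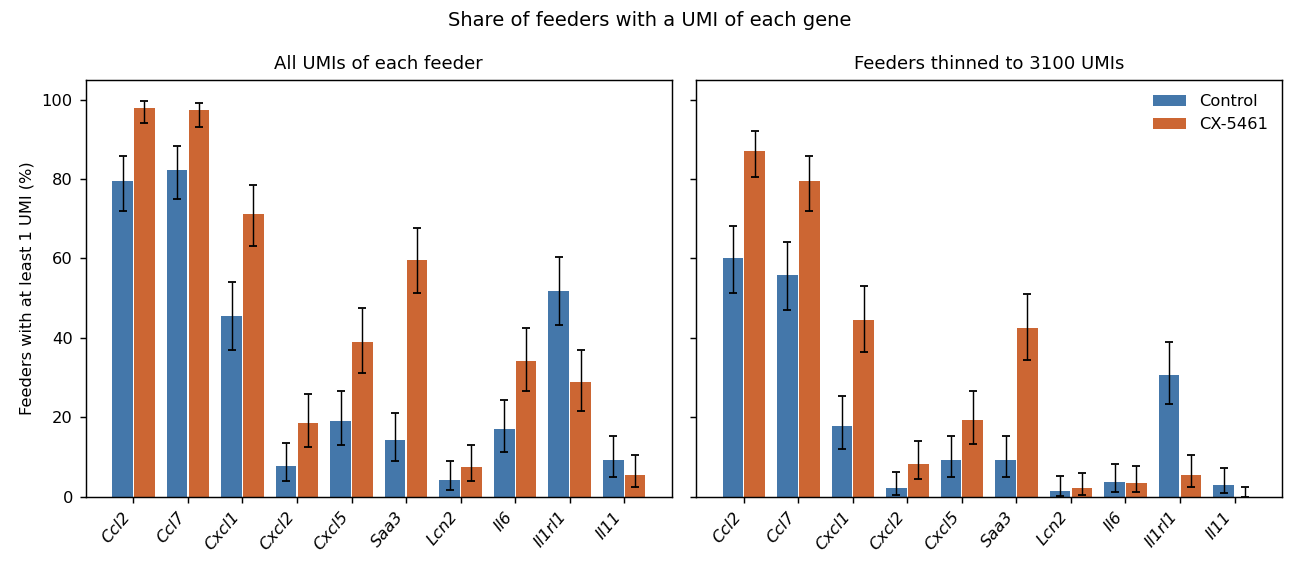
Share of feeders with at least 1 UMI of each gene, in percent, for all UMIs (left) and after thinning each feeder to 3100 UMIs (right), in control (blue) and CX-5461 (orange) libraries, with 95% Clopper-Pearson intervals. Saa3 goes from 14.2% to 59.6% and Il1rl1 from 51.8% to 28.8%, while the Il6 bars become level after thinning.

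Thinning to 1 depth left out 1 control feeder and kept the direction of the shares of the other genes. Ccl2 was then found in 60.0% of control and 87.0% of CX-5461 feeders, Ccl7 in 55.7% and 79.5%, Cxcl1 in 17.9% and 44.5%, and Saa3 in 9.29% and 42.5%. The shares in ES cells are given beside these as a background that can hold free RNA, whose amount was not measured. The same thinning left 2733 control and 4509 CX-5461 ES cells by markers. Of these, 0.293% and 0.355% held a Ccl2 UMI and 0.256% and 0.111% a Saa3 UMI. Without thinning, 1.19% of control and 2.03% of CX-5461 ES cells by markers held a Ccl2 UMI and 1.04% and 0.97% a Saa3 UMI. Their median depths were then 12660 and 14090 UMIs, below those of unthinned feeders.

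A difference of at least 2-fold, over genes with at least 20 UMIs in the feeders of both libraries together, was found for 5 genes in the upward direction (Ccl2, Cxcl1, Cxcl2, Cxcl5 and Lcn2) and for Il1rl1 downward, with 4 in between. Of all 10680 genes with that many UMIs, 11.3% were at least 2-fold higher and 6.09% at least 2-fold lower in CX-5461 feeders. All 10 genes passed the limit of 20 UMIs. Their median log2 ratio was 0.97, and that of all genes 0.17. Scaling by TMM moved every log2 ratio in feeders by -0.16, which left Lcn2 at 0.98 and 4 genes at or above 2-fold. Since the genes had been chosen on this contrast, nothing is read from these counts.

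Single feeders carried more of the 10 genes in the CX-5461 library. The median control feeder had a UMI of 3 of the genes and the median CX-5461 feeder of 5, and the highest number in either was 8. At least 5 genes were found in 33 of 141 control feeders (23.4%) and in 77 of 146 CX-5461 feeders (52.7%), and after thinning in 2.86% and 14.4%. No gene of the 10 was found in 8 control feeders and in 0 CX-5461 feeders. Of a feeder's UMIs the 10 genes made up 0.137% at the median of the control and 0.351% at that of the CX-5461 library, with maxima of 3.16% and 1.87%, so the most extreme cell was a control cell although the median was lower there.

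**Figure D3:**
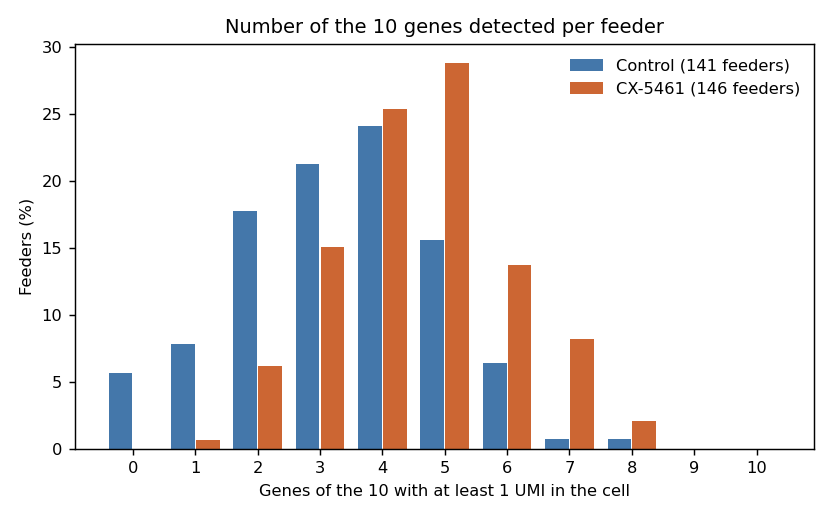
Percentage of feeders (vertical axis) by the number of the 10 genes with at least 1 UMI in the cell (horizontal axis), for 141 control (blue) and 146 CX-5461 (orange) feeders. The control distribution has its highest bar at 4 genes (24.1%) and the CX-5461 distribution at 5 genes (28.8%).

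Across the feeders of a library, the CC chemokines had the highest correlation with the other genes of the 10. Pearson's r between the log-normalized value of a gene and that of the other 9 was 0.54 for Ccl2 and 0.64 for Ccl7 in control feeders, 0.60 and 0.57 in CX-5461 feeders, and 0.29 and 0.41 for Cxcl1. In control feeders it was 0.315 for Cxcl5, 0.251 for Lcn2, 0.201 for Saa3, 0.191 for Cxcl2 and 0.144 for Il6, and in CX-5461 feeders 0.302, 0.208, 0.0528, 0.236 and 0.188. For Il1rl1 it was 0.0417 and -0.00113 and for Il11 -0.0908 and 0.0832. These values are over 141 and 146 cells that share a library, and they describe sparse counts without a test. Cxcl1-positive feeders of the CX-5461 library held Ccl2 at 2174 CPM and Cxcl1-negative ones at 1062 CPM, whereas Saa3-positive and Saa3-negative feeders held Ccl2 at 1851 and 1876 CPM. The 5 genes outside the 10 with the highest r to their sum in control feeders, among 8720 genes seen in at least 10% of these cells, were Fstl1 (0.42), Fbn1 (0.42), Cxcl10 (0.40), Ctsa (0.38) and Ifitm3 (0.38). In CX-5461 feeders the same genes had r of 0.12, 0.06, 0.33, 0.10 and 0.26.

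Collagen content differed between the feeders of the libraries, and the levels were therefore also compared within bands of it. The median collagen share was 0.193% in control and 0.333% in CX-5461 feeders. By markers, 78 control and 21 CX-5461 feeders had under 0.1% collagen, 74 and 27 had 0.1 to 0.2%, and 66 and 119 had 0.2% or more. The 10 genes together stood at 1730 and 2867 CPM in the lowest band, 1275 and 5213 CPM in the middle one and 3371 and 4120 CPM in the highest one. Ccl2, Ccl7, Cxcl1 and Cxcl2 were higher and Il1rl1 was lower in the CX-5461 library in each band. Il6 was nearly level in the lowest band (11.2 and 11.9 CPM) and higher in the CX-5461 library in the others. Cxcl5 was lower in the lowest band (123 and 51.6 CPM) and higher in the others. Intervals were not computed for single genes in the bands. Saa3 was higher in the CX-5461 library only in the middle band (10.7 and 799 CPM), with 247 and 83.4 CPM in the lowest and 1265 and 1069 CPM in the highest band, and Lcn2 stood at 39.6 and 13.0 CPM in the highest band. Saa3 and Lcn2 thus did not keep their direction in feeders with the most collagen, whose part in the summed difference was not tested.

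**Figure D4:**
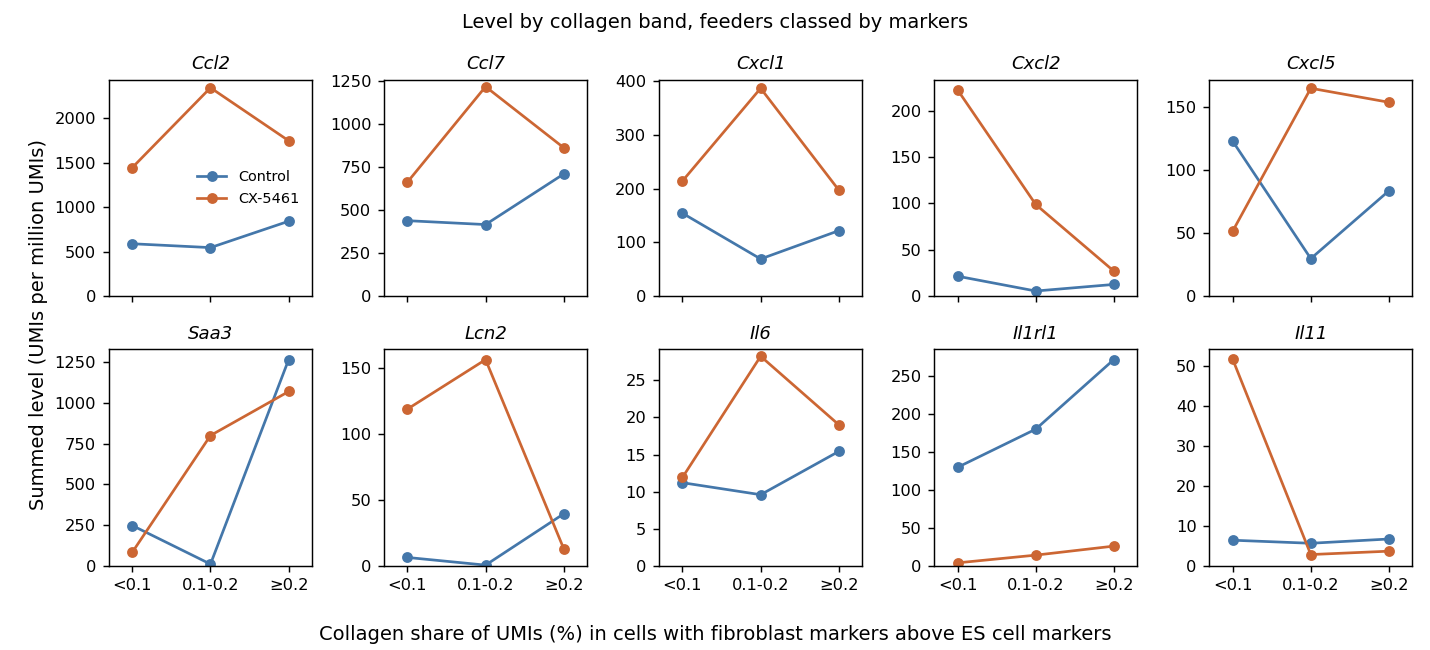
Summed level of each gene in CPM (a linear axis from 0 for each gene) in feeders by markers, in 3 bands of collagen share, for control (blue) and CX-5461 (orange). The CX-5461 line lies above the control line in all bands for Ccl2, Ccl7, Cxcl1 and Cxcl2 and below it for Il1rl1. For Il6 the lines nearly meet in the lowest band, and they cross for Cxcl5, Saa3, Lcn2 and Il11.

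The 10 genes were far higher in feeders than in ES cells. By the collagen limit, all 10 were at least 10-fold above the ES class in the control library, beside 6.63% of the 15157 genes compared, and 9 were in the CX-5461 library, beside 5.37% of 17568 genes. By markers, Ccl2 stood at 656 CPM in control feeders and 1.00 CPM in control ES cells, and at 1834 and 1.42 CPM in the CX-5461 library. ES cells thus held 0.153% and 0.0774% of the feeder level of Ccl2. The median over the 10 genes was 0.220% and 0.132%, within the range of 0.0586% to 0.705% at which the 3 collagen genes that define the feeders were read there. Il6 was at 0 UMIs in 3544 and in 4530 ES cells, which puts the feeders at least 179-fold and 436-fold higher when 3 counts are taken as the floor.

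Cxcl1 and Il11 stood out among the ES cells. Cxcl1 had 13 UMIs in 13 control ES cells (0.29 CPM) and 133 UMIs in 84 CX-5461 ES cells (2.05 CPM), a ratio of 7.09 (4.01 to 13.7), with up to 10 UMIs in a cell and 2 or more in 22 cells. It reached 0.262% of the feeder level in the control and 0.883% in the CX-5461 library, and its log2 ratio of 2.83 by markers stands against -0.63 by the collagen limit, where 78 control cells with fibroblast markers are counted in the ES class. Il11 had 6 and 32 UMIs in ES cells (0.13 and 0.49 CPM), each in a cell of its own, a ratio of 3.70 (1.52 to 10.8), and reached 7.52% of the feeder level in the CX-5461 library. Il1rl1 was at 23 and 1 UMIs. Ccl2 (45 and 92 UMIs), Ccl7 (40 and 51), Cxcl5 (10 and 22) and Saa3 (38 and 44) had ratios whose intervals included 1.

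The 84 CX-5461 ES cells with Cxcl1 held ES cell transcripts. Their collagen level was higher than that of the other 4446, but their median share of fibroblast markers was not. Pou5f1, a core pluripotency factor, had a UMI in 94.0% of them and in 98.3% of the others, the ES cell markers took a median of 0.704% and 0.880% of the UMIs, and the collagen genes stood at 22.4 and 10.6 CPM. The 22 fibroblast markers took a median of 0.0636% of the UMIs in the 84 cells and 0.0695% in the others. The other 9 genes stood at 4.97 and 4.01 CPM in these groups. Nfkbia, which encodes the NF-κB inhibitor IκBα, stood at 210 and 116 CPM, Atf3, a stress-induced AP-1 family factor, at 39.8 and 12.9 CPM, and Cdkn1a, the p53-induced cell cycle inhibitor, at 525 and 522 CPM. These values compare cells of 1 library, and the part of fibroblast RNA in them was not tested.

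By the collagen limit, 9 of the 10 genes passed 20 UMIs in the ES class, 2 of them at least 2-fold higher (Lcn2 and Il11) and 5 at least 2-fold lower (Ccl2, Ccl7, Cxcl5, Saa3 and Il1rl1) in the CX-5461 library, beside 26.9% and 5.9% of 18172 genes. By markers 7 passed, with 2 higher (Cxcl1 and Il11) and 1 lower (Il1rl1), beside 28.6% and 5.01% of 17976 genes. The summed level was 50.7 and 17.2 CPM by the collagen limit, and 3.99 (3.42 to 4.61) and 6.08 CPM (5.50 to 6.71) by markers, so the direction depended on where 78 and 21 cells were placed.

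The gene lists of the same pathways, chosen with earlier results known, gave other chemokines as the list with the highest single ratios in feeders. Of 14 other chemokines with enough UMIs, 6 were at least 2-fold higher and 1 lower in CX-5461 feeders. Ccl12, a monocyte chemokine of the Ccl2 cluster, had 13 and 342 UMIs (a ratio of 23.2, 13.4 to 44.0), in 4.26% and 14.4% of feeders. Ccl20, which draws CCR6-bearing lymphocytes, had 65 and 776 UMIs in 10.6% and 26.7% of feeders. Ccl8, another CC chemokine, had 218 and 1604 UMIs in 10.6% and 54.1% of feeders. Ppbp, a platelet chemokine of the Cxcl cluster, had 40 UMIs in control feeders, found in 4.26% of them, and 0 in CX-5461 feeders. This was at least 15.1-fold lower against a floor of 3 counts over the feeders. Of 9 acute-phase genes 6 were higher and 1 lower. The shares over all genes tested were 11.3% higher and 6.09% lower. Serpina3g and Serpina3n, protease inhibitors, had 28 and 238 and 31 and 210 UMIs, and Lbp, which binds lipopolysaccharide, had 8 and 32.

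Genes of the signalling pathways around them were also counted. Of 27 genes of the NF-κB pathway 6 were at least 2-fold higher and 1, Chuk, lower, with a median log2 ratio of 0.52. Icam1, an adhesion molecule induced by NF-κB, had 97 and 321 UMIs (29.7 and 86.6 CPM), Sod2, the mitochondrial superoxide dismutase, 429 and 1180, Tnip3 3 and 26 and Map3k8 6 and 23. Of 15 cytokine receptors 6 were higher and 0 lower, among them Il6ra (7 and 24 UMIs), Tlr2 (5 and 15), Il1rap, the chain that Il1rl1 pairs with (11 and 28), and Ltbr (73 and 178). Of 8 other cytokines 2 were higher (Il15 with 5 and 18, Lif with 22 and 51 UMIs) and 2 lower (Clcf1 with 29 and 12, Tslp with 20 and 9). Of 16 STAT3 and immediate-early genes 1 was higher (Cebpd, 28 and 83 UMIs) and 2 lower (Dusp1, 493 and 267, and Cebpb, 45 and 25). Among feeders by markers, Chuk, Birc3, Traf2, Il6st and Ltbr were no longer 2-fold different, and the counts were 6 higher and 0 lower for the NF-κB pathway, where Tnfaip3 and Zc3h12a passed instead, and 4 and 0 for the receptors. The share for all genes tested, 11.3% higher and 6.09% lower, is the background of these counts.

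Of 21 senescence-associated secreted proteins 7 were higher and 3 lower. Mmp10 had 5 and 27 UMIs, Mmp2, a gelatinase, 153 and 544, while Ereg, an EGF receptor ligand, had 19 and 5. Of 20 interferon-response genes 4 were higher and 1 lower, with Rsad2 at 24 and 193, Ifit2 at 10 and 66, Iigp1 at 40 and 118 and Ifi44 at 129 and 60 UMIs. The summed interferon-response genes differed little, with 2405 and 2528 CPM, and their median log2 ratio was 0.40. Of 19 p53 targets 5 were higher and 0 lower, with Fas at 129 and 324, Plk2 at 85 and 202, Bbc3 at 30 and 70 and Perp at 202 and 469 UMIs, ratios of 2.04 to 2.21. Among feeders by markers only 1 of the p53 targets stayed at or above 2-fold. Beside these counts by the collagen limit, 11.3% of all genes tested were at least 2-fold higher and 6.09% at least 2-fold lower.

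**Figure D5:**
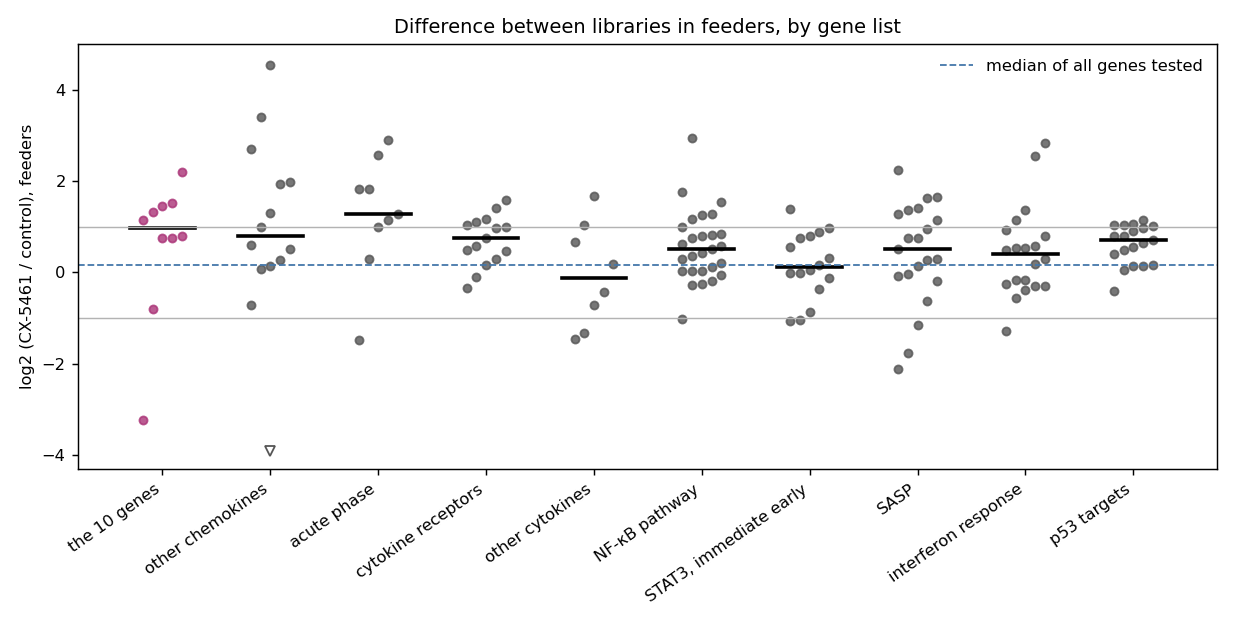
Log2 ratio of CX-5461 over control in feeders for genes with at least 20 UMIs, by gene list, with 1 point per gene, the list median as a black bar, the 2-fold limits in grey and the median of all genes as a dashed line. SASP stands for senescence-associated secreted proteins, and the open triangle marks Ppbp, which has no finite ratio. List medians run from -0.12 for other cytokines to 1.27 for acute-phase genes, beside 0.97 for the 10 genes.

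Of the markers of blood and vessel cells, several defining ones were at 0 in the feeders of both libraries and a few were not. The 18 macrophage markers stood at 19.3 CPM in control and 23.5 CPM in CX-5461 feeders, with 12 and 11 of them at 0, among them Adgre1, Ctss, C1qa, C1qb, C1qc and Ptprc in both. Cd68, a lysosomal protein, made up most of that sum, with 37 and 48 UMIs in 14.9% and 24.0% of feeders, and Cd74 had 0 and 12 UMIs. Csf1r had 13 and 9 UMIs in 7.09% and 6.16% of feeders, Cd14 5 and 11 UMIs and Laptm5 6 and 4. The 10 neutrophil markers stood at 1.23 and 5.93 CPM, with 8 at 0 in each library (Elane, Mpo, Ly6g and S100a9 among them), and Camp, an antimicrobial peptide precursor, made up nearly all of that sum with 3 and 21 UMIs, in 2.13% and 13.0% of feeders. The 8 mast cell markers stood at 0.92 and 1.62 CPM. The 10 endothelial markers stood at 7.04 and 11.3 CPM, with Cdh5 and Tie1 at 0 in both libraries. Egfl7 held the most endothelial marker UMIs, 10 and 26, in 7.09% and 17.1% of feeders, and Pecam1 had 4 and 5. The 10 adipocyte and chondrocyte markers stood at 30.0 and 24.0 CPM.

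Some contractile genes and fibroblast markers also differed between the feeders of the libraries. The 9 smooth muscle markers stood at 2753 and 1135 CPM, mainly through Acta2, the smooth muscle actin of myofibroblasts, with 8142 and 3514 UMIs. Of the 7 with enough UMIs 4 were at least 2-fold lower (Acta2, Cnn1, Actg2 and Lmod1) and 2 higher (Notch3 with 21 and 66 and Mcam with 4 and 19 UMIs), and Des stood at 74.7 and 119 CPM. Of the 22 fibroblast markers 3 were at least 2-fold higher in CX-5461 feeders, which were Sparc, Dcn and Postn, and 2 were lower, which were S100a6 and Tagln. Their sum was 25132 and 21564 CPM. Of all genes tested, 11.3% were at least 2-fold higher and 6.09% at least 2-fold lower, so nothing is read from the counts of fibroblast markers. The part of these differences in the levels of the 10 genes was not tested.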

How the data were processed

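Per condition, the authors deposited 1 table of unnormalized UMI counts (genes by barcodes) made from 10x Genomics 3′ libraries with a published droplet pipeline on mm10 and, per the labels, analysed with Seurat 2.3.4. Symbols come from GENCODE: of 54146 identifiers, 52480 matched including the version and 54079 when it was ignored. Cells under 500 UMIs or over 0.2 mitochondrial were removed, and no doublet caller was run. UMIs summed over a class are given as CPM with exact Poisson intervals, ratios with conditional binomial intervals and shares with Clopper-Pearson intervals, all at 95%. With 1 library per condition no p-value was given. Counting 3′ ends makes levels independent of transcript length. Serial barcodes do not allow shared barcodes to be counted. The 10 genes and all gene lists were chosen with earlier results of these data known. Genes named from lists are up to 4 per list by log2 ratio among those at least 2-fold different with 20 UMIs or more, plus Tnfaip3, Zc3h12a, Birc3, Traf2, Chuk, Il6st, Il33, the single cell type markers, Nfkbia, Atf3, Cdkn1a and Pou5f1, chosen after their values were seen. A gene that this rule names is not reported here. TMM factors came from edgeR 4.0.16. Ratios and intervals were run on simulated Poisson counts of pooled feeders, the model that they assume. This checks the calculation only, since the simulation held no variation between cells. Python 3.11.15, numpy 2.4.6 and scipy 1.17.1 were used.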

Additional observations from a re-analysis of the deposited data

Results flagged for a closer look

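For 6 genes the log2 ratio of CX-5461 over control pointed up in feeders and down in the ES class when cells were divided by the collagen limit. The log2 ratio in feeders minus that in the ES class was 2.72 for Ccl2, 2.69 for Ccl7, 1.96 for Cxcl1, 4.24 for Cxcl5, 3.71 for Saa3 and 3.48 for Il6. With 1 library per condition the difference was not tested. When cells were divided by markers, the log2 ratio in ES cells was 0.50 for Ccl2, -0.18 for Ccl7, 2.83 for Cxcl1, 0.61 for Cxcl5 and -0.32 for Saa3, and Il6 had no UMI there.

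The 5 control cells with at least 10 Lyz2 UMIs, which are in no comparison, held 660 Saa3 UMIs, or 10839 CPM (10027 to 11698), from 18 to 261 per cell. Lyz2 had 47 to 175 UMIs in them and at most 1 in any other kept cell, and the macrophage markers Tyrobp (151 UMIs), Fcer1g (137) and C1qb (106) were found in each. Ccl2 had 18 UMIs, Ccl7 17 and Cxcl2 16, while Cxcl5, Lcn2, Il6, Il1rl1 and Il11 were at 0.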

How the results depend on the processing

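No paired analysis was possible because the barcodes of a condition carry no sample of origin, and for the same reason leaving out each replicate was not run. A collagen limit of 1% left 0 control and 1 CX-5461 feeders and was not run. Dividing cells by markers, with or without TMM, and a collagen limit of 0.2% were chosen after seeing the data.

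In feeders the log2 ratio of the summed genes, 0.96, was 0.79 with TMM, 0.57 in feeders with at most 2 ES cell marker UMIs, 1.03 without the highest cell, 1.02 after thinning, 1.02 by markers, 0.85 by markers with TMM and 0.29 at 0.2% collagen, where the median over genes was 0.29 instead of 0.97. The count of genes at least 2-fold higher, 5, became 8 at a fold of 1.5, 3 by markers with TMM and 2 at 0.2% collagen, and the count lower, 1, became 2 with the mean over cells, after thinning, at a fold of 1.5 and at 0.2% collagen. Saa3 (-0.24) and Lcn2 (-1.61) reversed at 0.2% collagen, Il6 after thinning (-0.0605), and Il11 in feeders with few ES cell marker UMIs (0.18) and by markers (0.0823). The limit of 2 ES cell marker UMIs left 30 control and 75 CX-5461 feeders. In these the log2 ratio of Ccl2 was 1.09 instead of 1.45, of Ccl7 0.17 instead of 0.76 and of Saa3 0.0629 instead of 0.80. For Il1rl1 it was -1.88 instead of -3.22. It became larger for Cxcl1, 1.68 instead of 1.32, and for Cxcl5, 2.04 instead of 1.52. Of 98 values for single genes in feeders, 68 stayed within their counting interval, 25 moved and 5 reversed.

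In the ES class the log2 ratio of the summed genes, -1.56, was -1.96 with TMM, -0.96 with the mean over cells, -1.94 with the Lyz2 cells, -0.39 at 0.2% collagen, and reversed to 0.61 by markers and 0.18 by markers with TMM. The count of genes higher, 2, became 1 with TMM and 1 with limits of 5000 UMIs and 0.1 mitochondrial, and the count lower, 5, became 1 by markers, by markers with TMM and at 0.2% collagen. Reversed single values were Ccl2 (0.50 and 0.0782 by markers without and with TMM), Cxcl1 (2.83 and 2.40 by markers, 0.11 with the mean over cells and 0.0307 at 0.2% collagen), Cxcl5 (0.61 and 0.18 by markers) and Saa3 (0.33 at 0.2% collagen). Of 78 such values 48 stayed, 21 moved and 9 reversed. By construction the alternatives by markers move 78 and 21 cells out of the ES class, and the cause of the other shifts was not tested.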
